A study of Homo sapiens with 20 samples.

Results

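HEK293E and HCT116 cells that lacked their own DROSHA and were given the short form DROSHA-p140 were compared, to describe the pool of microRNAs (miRNAs) that each line made with this enzyme. The libraries were chosen by their labels, as all 3 HEK293E and all 3 HCT116 libraries of DROSHA knockout (KO) cells rescued with DROSHA-p140, 6 of the 20 libraries of the series. HEK293E is a human embryonic kidney line, and HCT116 comes from a human colon cancer. The study sequenced small RNA from knockout cells of both lines rescued with p140 or with full-length DROSHA, and from wild-type HCT116 cells in medium with high or low serum. Besides these 6 libraries, the 6 full-length rescues (3 of each line) were used to ask where the line difference depended on the DROSHA form. A single library of HCT116 knockout cells given GFP and a single one of untreated wild-type HCT116 cells were used for description. The p140 groups shared the knockout and the rescue, and differed in the line. How the knockouts were made, whether each is 1 clone, how much p140 protein the cells held and whether replicates were separate cultures is not stated in the labels. The p-values therefore measure only the spread between these libraries, which may be technical.

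A miRNA starts as a hairpin in a longer primary transcript, and DROSHA is the nuclease that cuts the hairpin out in the nucleus. DICER then cuts off the loop, and 1 strand of the remaining duplex is loaded into an Argonaute protein, where bases 2 to 8, the seed, pair with target mRNAs. Some miRNAs bypass DROSHA: mirtrons are released by splicing, and the precursors of miR-320a and miR-484 start at a capped transcript end. Many hairpins share a primary transcript with others, and many miRNAs have relatives with the same seed at another locus, so cells of different origin can hold the same seed from different genes.

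The mature miRNAs that set the lines apart are given here, from RefSeq (GRCh38.p14), with the seed in capitals. The first group was more abundant in HCT116.
miR-21-5p: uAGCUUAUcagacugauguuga
miR-31-5p: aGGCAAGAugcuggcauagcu
miR-29a-3p: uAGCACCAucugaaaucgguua
miR-100-5p: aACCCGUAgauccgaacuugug
let-7a-5p: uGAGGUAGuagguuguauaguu
let-7i-5p: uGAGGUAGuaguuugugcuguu
The next group was more abundant in HEK293E.
miR-218-5p: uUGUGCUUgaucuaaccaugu
miR-10a-5p: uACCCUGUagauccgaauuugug
miR-99a-5p: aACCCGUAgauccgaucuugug
let-7c-5p: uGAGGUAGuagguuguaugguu
miR-15b-5p: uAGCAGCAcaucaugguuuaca
The last sequences belong to a pair of neighbours on chromosome X, which share a seed and were abundant in both lines, though lower in HEK293E after TMM scaling.
miR-222-3p: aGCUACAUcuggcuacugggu
miR-221-3p: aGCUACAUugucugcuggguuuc
Each group holds members of the same seed families. miR-99a-5p differs from miR-100-5p by A16U, with positions counted from 1 at the 5′ end and the miR-100-5p base first. let-7c-5p differs from let-7a-5p by A19G, and let-7i-5p differs from let-7a-5p by G12U, A17G, U18C and A19U, each with the let-7a-5p base first. All these changes lie outside the seed.

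The HEK293E p140 libraries held 135083, 185124 and 246016 miRNA reads, and the HCT116 p140 libraries 307125, 305599 and 327011. Levels are counts per 1000000 reads (CPM) after TMM scaling, which sets library factors so that most miRNAs do not change on average, so the values need not add up to the same sum in every library. HCT116 p140 replicate 3 stood apart: its chi-square per degree of freedom was 89.1 and 67.3 against replicates 1 and 2, which had 4.38 between themselves, and pairs of HEK293E libraries had 5.85 to 14.7. The colon label of HCT116 was checked against miRNA markers of epithelial cells. The miR-200 family, which keeps epithelial cells in their state by repressing ZEB1 and ZEB2, summed to 157 to 192 CPM without TMM scaling in HEK293E p140, and to 195 to 245 CPM in HCT116 p140. It summed to 290.6 to 367 CPM in HCT116 with full-length DROSHA, to 4989 in the HCT116 knockout with GFP and to 48180 in the untreated wild-type HCT116 library. The rescued HCT116 cells therefore nearly lacked this epithelial marker family, which the wild-type library of the same line held. The gut miRNA miR-192-5p had 97.8, 82.0 and 72.1 CPM in HEK293E, against 14.1, 14.1 and 27.5 CPM in HCT116, which were 3, 3 and 7 reads. Without TMM scaling these were 9.77, 9.82 and 21.4 CPM, and the wild-type library held 42.0 CPM (36 reads). The other tested gut miRNA, miR-194-5p, had a mean of 143 CPM in HEK293E and 191 CPM in HCT116 (adjusted p = 0.27 by edgeR). Without TMM scaling it had 127, 105 and 187 CPM in HCT116 p140, against 142 CPM in the wild-type library, so it was not low. Whether the low level of the miR-200 family and miR-192-5p in HCT116 p140 cells bears on any difference between the lines was not tested.

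Most of the measured miRNAs differed between the lines. Of 422 mature miRNAs with enough reads, 233 (55.2%) had an adjusted p under 0.05 by edgeR's quasi-likelihood test, of which 109 (25.8%) were higher and 124 (29.4%) lower in HEK293E. Of these, 97 were higher and 112 lower by over 2-fold, and 34 were higher and 42 lower by over 8-fold. The values of the lines did not overlap for 253 miRNAs (60.0%). The median log2 fold change of all 422, HEK293E over HCT116, was -0.12. Scaling to library totals alone moved that median to 0.83 and gave 290 calls, 75 of them lower, and scaling to the DROSHA-independent miRNAs moved it to 0.36 with 83 higher and 57 lower. This shift is large beside differences of under 2-fold and small beside those described first.

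**Figure D1:**
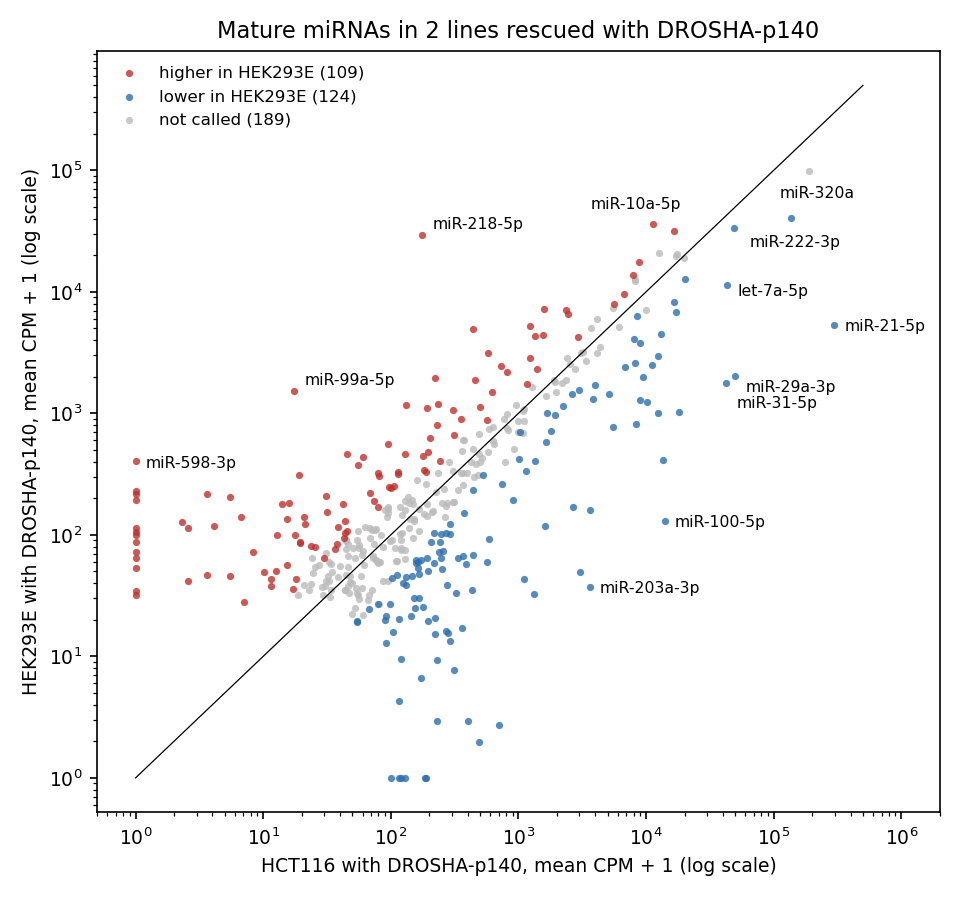
Mean CPM + 1 of 422 mature miRNAs in HEK293E (vertical axis) and HCT116 (horizontal axis) cells with DROSHA-p140, n = 3 libraries each, on log scales with the line of equal levels. Red points (109) were higher and blue points (124) lower in HEK293E at an adjusted p under 0.05, and miR-218-5p and miR-21-5p lie far off the line.

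The pools were built differently. In HEK293E the most abundant miRNA was miR-320a, with 13.3%, 15.4% and 11.9% of reads, and in HCT116 it was miR-21-5p, with 18.8%, 20.2% and 26.0%. The top 10 miRNAs took 48.8 ± 1.27% of reads in HEK293E and 62.9 ± 1.76% in HCT116 (SD, n = 3 each). It took 84, 79 and 80 miRNAs to hold 90% of the reads in HEK293E, against 52, 53 and 57 in HCT116. The libraries of the lines did not overlap in either measure (exact permutation test over libraries, two-sided, p = 0.1 each, the smallest that 3 against 3 allows). The 8 most abundant miRNAs of HEK293E were miR-320a, miR-222-3p, miR-10a-5p, miR-221-3p, miR-92a-3p, miR-218-5p, miR-4521 and miR-93-5p. Those of HCT116 were miR-21-5p, miR-320a, miR-222-3p, miR-29a-3p, miR-221-3p, let-7a-5p, miR-31-5p and miR-103a-3p. The lines shared 3 of these, namely miR-320a, miR-222-3p and miR-221-3p.

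**Figure D2:**
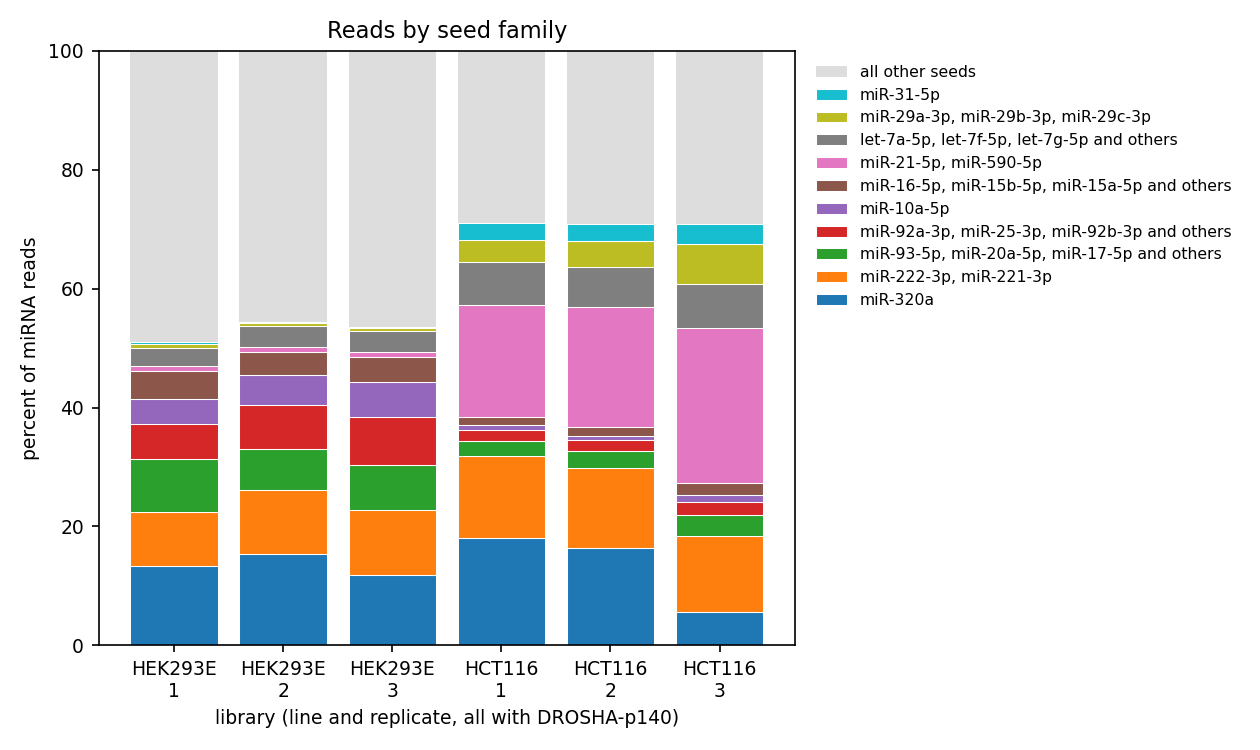
Share of miRNA reads (percent) by seed family in each of the 6 libraries, HEK293E on the left and HCT116 on the right, for the 6 families with the most reads in each line. The pink block of miR-21-5p is 18.8% to 26.0% of reads in HCT116 and under 1% in HEK293E, and the miR-320a block is lowest in HCT116 replicate 3 (5.66%).

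The largest gap in reads was that of miR-21-5p, an abundant miRNA of many tumours that lies in an exon of VMP1 (chr17:59841273-59841294, hg38). It had 5449, 5467 and 5037 CPM in HEK293E, against 271600, 290600 and 333300 CPM in HCT116. The replicates of each line were close, and the lines were 56.1-fold apart (log2 fold change -5.81 ± 0.17, adjusted p = 1.4e-09). Its passenger strand miR-21-3p was lower too, at 48.5 ± 34.8 CPM in HEK293E and 3017 ± 524 CPM in HCT116. miR-31-5p, from a long noncoding RNA on chromosome 9 (chr9:21512158-21512178, intron of MIR31HG), had 1847, 1731 and 1771 CPM in HEK293E, against 42280, 41540 and 43530 CPM in HCT116, which is 23.8-fold lower (adjusted p = 3.1e-09). miR-203a-3p, a miRNA of differentiating epithelia, had 41.2, 24.6 and 43.3 CPM in HEK293E, against 3135, 3536 and 4165 CPM in HCT116 (log2 fold change -6.60 ± 0.28, adjusted p = 1.8e-08). These 3 belong to a list of 12 miRNAs linked to colon cancer, of which 7 were tested: 6 were lower in HEK293E (29.4% of all miRNAs were) and 1 was higher (25.8%), with a median log2 fold change of -4.57. The member that was higher was miR-375, known from endocrine cells, with 134 ± 35.2 CPM in HEK293E and 14.4 ± 5.12 CPM in HCT116 (adjusted p = 0.00016). It passed the filter on low counts through HEK293E. In the untreated wild-type HCT116 library, miR-21-5p had 378900, miR-31-5p 30740 and miR-203a-3p 1377 CPM without TMM scaling.

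The other large falls included miRNAs that were nearly absent from HEK293E. miR-145-5p, which marks smooth muscle and stroma in tissue, had 0, 0 and 2 reads in HEK293E, against 106, 101 and 57 in HCT116. Its pooled level was 152-fold lower in HEK293E, with an exact 95% counting interval of 41.8 to 1270. miR-584-5p had 0, 0 and 1 reads in HEK293E, against 106, 110 and 112 in HCT116 (379-fold lower, interval 67.5 to 15000). miR-203b-3p had 1, 0 and 0 reads in HEK293E, against 137, 123 and 223 in HCT116 (558-fold lower, interval 99.6 to 22100). Its hairpin lies antisense to that of miR-203a, and since the sources do not say whether strand was used in counting, its reads are uncertain. miR-139-5p, from an intron of PDE2A, had 1, 2 and 4 reads in HEK293E, against 62, 57 and 33 in HCT116 (log2 fold change -4.62 ± 0.53, adjusted p = 3.8e-05). For each of these miRNAs every HEK293E library lay below every HCT116 library, which the rule for naming them required. All of them passed the filter on low counts through HCT116, so they could only come out lower in HEK293E.

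**Figure D3:**
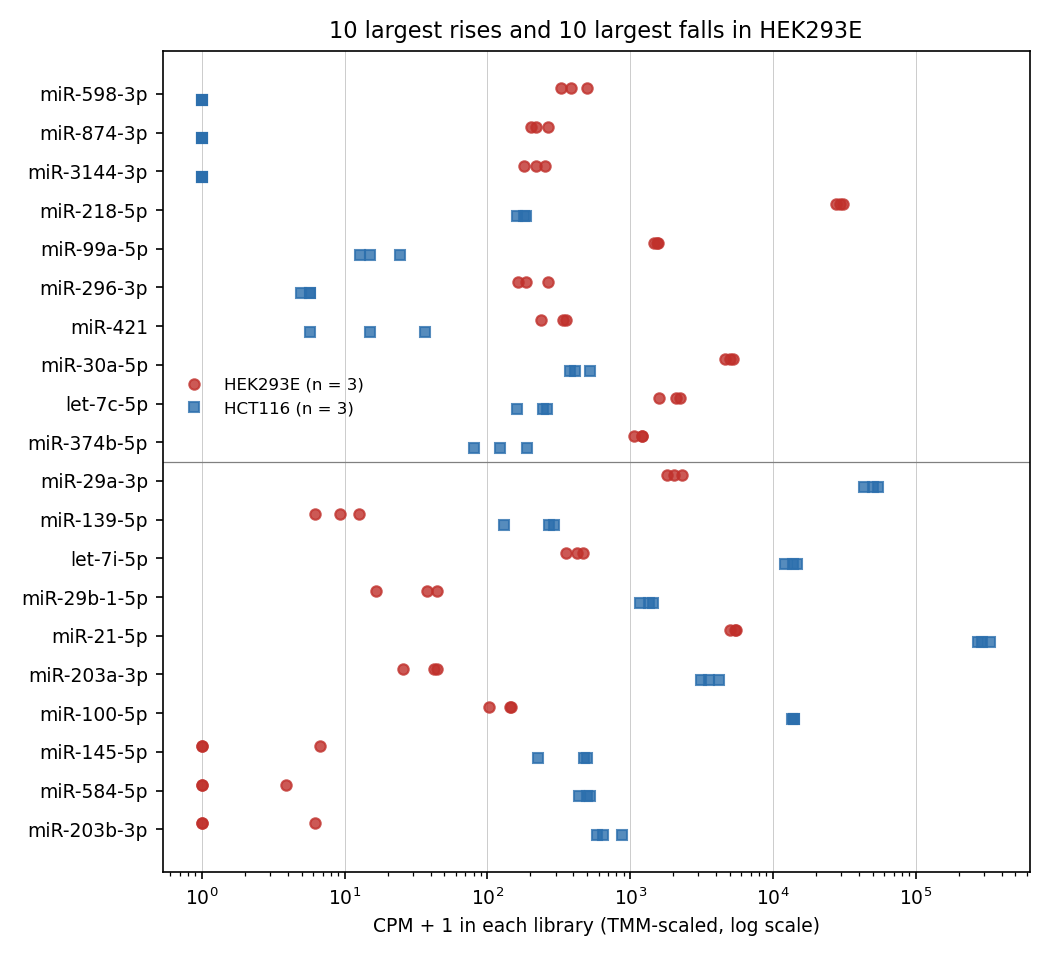
CPM + 1 in each library (log scale, n = 3 per line) of the 10 largest rises (upper rows) and the 10 largest falls (lower rows) in HEK293E (red circles) against HCT116 (blue squares). Rows were chosen among miRNAs whose lines did not overlap, and the 3 uppermost miRNAs had no read in HCT116.

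The miR-29 family represses collagens and other matrix genes and DNA methyltransferases. Its members from chromosome 7 were lower in HEK293E. miR-29a-3p (chr7:130876748-130876769) had 2290, 1809 and 2039 CPM in HEK293E, against 43580, 50570 and 54830 CPM in HCT116 (log2 fold change -4.60 ± 0.18, adjusted p = 9.6e-09). The 5p strand of its neighbour mir-29b-1 was lower by as much, with 31.9 ± 14.6 CPM in HEK293E and 1317 ± 141 CPM in HCT116 (log2 fold change -5.28 ± 0.34, adjusted p = 5.9e-07). From the other locus, on chromosome 1, miR-29c-3p had 1317, 660 and 707 CPM in HEK293E, against 456, 754 and 1107 CPM in HCT116, which overlap (log2 fold change 0.20 ± 0.36, adjusted p = 0.65). miR-29b-3p, which both loci encode and which cannot be assigned to either, was lower too (log2 fold change -4.16 ± 0.55, adjusted p = 8.7e-05), and its HCT116 replicate 3 was the highest with 31750 CPM against 9095 and 13470.

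The 2 clusters of the miR-23/27/24 family, which acts in blood vessel and lymphocyte biology, split in the same way. In the chromosome 19 cluster, all 5 tested strands of mir-23a, mir-27a and mir-24-2 were lower in HEK293E (29.4% of all miRNAs were), with log2 fold changes of -4.66 to -3.32. Of these, miR-23a-5p, miR-27a-5p and miR-24-2-5p had means of 5.62 to 19.6 CPM in HEK293E. They passed the filter on low counts through HCT116 and could only come out lower, so the count and the range partly rest on the filter. miR-27a-3p had 1070, 915 and 1047 CPM in HEK293E, against 11180, 13470 and 12560 CPM in HCT116 (log2 fold change -3.62 ± 0.17, adjusted p = 4.9e-08). Its relative miR-27b-3p, from chromosome 9, had 3406, 2892 and 3202 CPM in HEK293E, against 2773, 3060 and 3741 CPM in HCT116, and these overlapped (log2 fold change -0.01 ± 0.18, adjusted p = 0.95). Scaled to library totals alone, the log2 fold change of miR-27b-3p was 0.93. Both share a seed, and of the 2 only the chromosome 19 member was called after TMM scaling.

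let-7 miRNAs, which repress growth genes such as MYC, RAS and LIN28 and rise as cells differentiate, were mostly lower in HEK293E. Of 16 tested strands 13 were lower (29.4% of all miRNAs were) and 1 was higher, and the median log2 fold change was -2.34. Of the 13, let-7a-2-3p, let-7d-3p, let-7g-3p and let-7i-3p had means of 0 to 19.3 CPM in HEK293E. These passed the filter on low counts through HCT116 and could only come out lower, so the count and the median partly rest on the filter. let-7i-5p differed most among the abundant ones, with 422, 357 and 464 CPM in HEK293E, against 14630, 13750 and 12110 CPM in HCT116 (log2 fold change -5.02 ± 0.20, adjusted p = 9.6e-09). let-7a-5p, the most abundant member, had 9669, 12940 and 11430 CPM in HEK293E, against 47160, 42600 and 40360 CPM in HCT116 (log2 fold change -1.93 ± 0.16, adjusted p = 4.2e-06). let-7g-5p had 2987 ± 509 CPM in HEK293E and 12440 ± 1130 CPM in HCT116, and let-7f-5p 4535 ± 505 CPM in HEK293E and 13170 ± 801 CPM in HCT116. let-7e-5p was not called, at -0.34 ± 0.19 on the log2 scale (adjusted p = 0.14). let-7 members differ by single bases, so reads could be split between them by the authors' counting.

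The exception among them, let-7c-5p, belonged to a swap between a pair of related clusters. The human genome holds a miR-99/100, let-7 and miR-125 cluster on chromosome 21 in an intron of MIR99AHG, and its relative on chromosome 11 in MIR100HG. From chromosome 21, miR-99a-5p (chr21:16539101-16539122) had 1456, 1530 and 1566 CPM in HEK293E, against 14.1, 23.6 and 11.8 CPM in HCT116 (log2 fold change 6.50 ± 0.32, adjusted p = 5.8e-08). let-7c-5p (chr21:16539838-16539859) had 1580, 2235 and 2080 CPM in HEK293E, against 244, 160 and 259 CPM in HCT116 (log2 fold change 3.15 ± 0.26, adjusted p = 4.2e-06). The 3p strand of mir-125b-2 from the same locus had 35, 47 and 72 reads in HEK293E and 0 in all 3 HCT116 libraries, which makes it at least 44.4-fold higher (taking 3 counts over the HCT116 group).

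From chromosome 11 the direction was the opposite. miR-100-5p (chr11:122152275-122152296) had 144, 144 and 101 CPM in HEK293E, against 14090, 14150 and 13680 CPM in HCT116 (log2 fold change -6.76 ± 0.22, adjusted p = 2.5e-09). let-7a-2-3p, from the same host, had 0 reads in HEK293E and 69 over the HCT116 libraries (at least 26.6-fold lower in HEK293E). miR-125b-1-3p was 6.72 ± 3.20 CPM in HEK293E and 310 ± 40.9 CPM in HCT116 (log2 fold change -5.49, adjusted p = 3.6e-06). The mature miR-125b-5p, which both clusters encode, was present in both lines, with 2389 ± 125 CPM in HEK293E and 6868 ± 473 CPM in HCT116 (log2 fold change -1.52 ± 0.16, adjusted p = 1.9e-05). As a seed family, miR-99a, miR-99b and miR-100 together made 0.423%, 0.487% and 0.50% of reads in HEK293E, against 1.07%, 1.07% and 1.14% in HCT116. The summed seed had a log2 fold change of -2.03 ± 0.22 (adjusted p = 4.9e-07), a smaller difference than that of its member on chromosome 21 (6.50) or 11 (-6.76). The third cluster, on chromosome 19, differed little: miR-125a-5p was not called (-0.34 ± 0.17, adjusted p = 0.13), and miR-99b-5p was called at 0.59 ± 0.22 (adjusted p = 0.046) but lost the call when any 1 of 3 libraries was left out, namely HEK293E replicate 2 or 3 or HCT116 replicate 2, with values of 0.52 to 0.64.

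Among the 10 largest rises in HEK293E, miR-218-5p was the most abundant. This miRNA lies in introns of SLIT2 and SLIT3 and is known from motor neurons. It had 29520, 27710 and 31090 CPM in HEK293E, against 160, 179 and 184 CPM in HCT116, a 168-fold difference (log2 fold change 7.39 ± 0.19, adjusted p = 7.8e-10). The strand specific to the SLIT2 copy on chromosome 4, miR-218-1-3p, had 55, 40 and 71 reads in HEK293E, against 0, 0 and 2 in HCT116 (71.9-fold higher, interval 19.6 to 598). miR-218-5p had 33.9 CPM in wild-type HCT116, without TMM scaling. On a list of 25 miRNAs known from neurons, 12 were tested, of which 9 were higher and 2 lower in HEK293E (25.8% and 29.4% of all miRNAs were), with a median log2 fold change of 3.22. Of the 9, miR-124-3p, miR-129-5p, miR-129-2-3p, miR-138-5p and miR-218-1-3p had means of 0 to 13.1 CPM in HCT116. These passed the filter on low counts through HEK293E and could only come out higher, so the count and the median partly rest on the filter. The list summed to 30650 to 33920 CPM in HEK293E and 1405 to 1916 CPM in HCT116, and most of the HEK293E sum was miR-218-5p. miR-9-5p, of neural progenitors, had 1693, 906 and 975 CPM in HEK293E, against 150.4, 127 and 424 CPM in HCT116 (log2 fold change 2.33 ± 0.45, adjusted p = 0.0013). miR-138-5p had 177 ± 47.0 CPM in HEK293E and 13.1 ± 3.28 CPM in HCT116 (adjusted p = 5.4e-05). The neuronal miR-124-3p had 32 reads over the HEK293E libraries and 1 over the HCT116 libraries. The members that were lower were miR-153-3p (log2 fold change -1.48, adjusted p = 0.005) and miR-128-3p (-0.76, adjusted p = 0.032). The call of miR-128-3p was lost under most alternatives, and its direction turned to 0.17 when scaled to library totals.

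Several rises were of miRNAs with no read in HCT116. miR-598-3p had 63, 93 and 173 reads in HEK293E, miR-874-3p 42, 64 and 70, and miR-3144-3p 49, 44 and 76, while the 3 HCT116 libraries held 0 reads of each. With 3 counts over the HCT116 group as the floor, these were at least 95.0-fold, 50.8-fold and 48.8-fold higher in HEK293E. miR-296-3p had 36, 64 and 56 reads in HEK293E and 1 in each HCT116 library (45.0-fold higher, interval 15.1 to 221). All of these passed the filter on low counts through HEK293E, so they could only come out higher there. At higher levels, miR-30a-5p (chr6:71403595-71403616, intron of LINC00472) had 5259, 4581 and 5039 CPM in HEK293E, against 376, 410 and 522 CPM in HCT116 (log2 fold change 3.50 ± 0.20, adjusted p = 2e-07). Its relatives with the same seed had smaller fold changes: miR-30d-5p had 0.52 ± 0.15 (adjusted p = 0.016), miR-30c-5p had -0.43 ± 0.15 (adjusted p = 0.032), and miR-30b-5p and miR-30e-5p were not called. Scaled to library totals, the log2 fold change of miR-30c-5p turned positive, to 0.51. Leaving out any 1 library ended the call of miR-30c-5p, and leaving out HEK293E replicate 3 or HCT116 replicate 2 that of miR-30d-5p.

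miRNAs of the HOX gene clusters, which sit among the HOX genes that pattern the body axis, were higher in HEK293E. Of 8 tested strands 6 were higher (25.8% of all miRNAs were) and 0 lower, with a median log2 fold change of 1.32. miR-10a-5p (chr17:48579904-48579926, within HOXB3) had 29220, 38300 and 41460 CPM in HEK293E, against 10320, 9760 and 13760 CPM in HCT116 (log2 fold change 1.69 ± 0.19, adjusted p = 3.8e-05). miR-10b-5p, from the HOXD cluster, had 3947, 4430 and 4621 CPM in HEK293E, against 1499, 1518 and 1056 CPM in HCT116 (log2 fold change 1.67 ± 0.20, adjusted p = 4.4e-05). miR-196b-5p, at the HOXA cluster, overlapped between the lines (0.53 ± 0.22, adjusted p = 0.066). The median stayed positive under the 5 alternatives compared for lists, but with scaling to the DROSHA-independent miRNAs only 1 member was called.

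The cell-cycle cluster miR-17/92, a target of MYC in the transcript MIR17HG, was moderately higher in HEK293E. Of 11 tested strands 7 were higher (25.8% of all miRNAs were) and 0 lower, and the median log2 fold change was 0.93. Its most abundant member miR-92a-3p had 24700, 34790 and 35030 CPM in HEK293E, against 16080, 15120 and 18440 CPM in HCT116 (log2 fold change 0.93 ± 0.18, adjusted p = 0.0011). miR-19a-3p differed most among the strong members, with 5876, 5127 and 4800 CPM in HEK293E, against 813, 1108 and 1802 CPM in HCT116 (log2 fold change 2.08 ± 0.27, adjusted p = 8.7e-05). miR-17-5p (0.58 ± 0.23, adjusted p = 0.056) and miR-20a-5p (0.63 ± 0.26, adjusted p = 0.061) overlapped between the lines, with HCT116 replicate 3 the highest of its line, and without that library they were called at 1.00 and 1.08, and 11 of the 11 strands were called. The related miR-106b/25 cluster in MCM7 had 4 of 6 strands higher, against the same 25.8%, and 0 lower, with a median of 0.58. miR-25-3p had 13840, 18950 and 19620 CPM in HEK293E, against 9456, 9458 and 7580 CPM in HCT116 (log2 fold change 0.98 ± 0.18, adjusted p = 0.00091).

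The miR-15/16 family, known for blocking the cell cycle and BCL2, held members of 1 seed and 1 transcript whose differences were unequal. miR-15b-5p (chr3:160404607-160404628, intron of SMC4) had 6628, 7526 and 7434 CPM in HEK293E, against 1316, 1278 and 2147 CPM in HCT116 (log2 fold change 2.19 ± 0.23, adjusted p = 1.9e-05). Its neighbour in the same intron, read by the strand that only mir-16-2 gives, was close to even: miR-16-2-3p had 401, 455 and 571 CPM in HEK293E, against 616, 514 and 612 CPM in HCT116 (-0.28 ± 0.24, adjusted p = 0.34). The mature miR-16-5p was not called, with 19130 ± 392 CPM in HEK293E and 19890 ± 2646 CPM in HCT116 (-0.06 ± 0.15, adjusted p = 0.75). When scaled to library totals both turned positive, miR-16-2-3p to 0.66 and miR-16-5p to 0.88. miR-15a-5p from chromosome 13 had 4739, 2186 and 2515 CPM in HEK293E, against 320, 443 and 978 CPM in HCT116 (log2 fold change 2.43 ± 0.43, adjusted p = 0.00066). Of 8 tested strands of the family, 5 were higher in HEK293E (25.8% of all miRNAs were) and 0 lower. Of the 5, miR-195-5p and miR-497-5p had means of 41.1 and 42.4 CPM in HCT116 and passed the filter on low counts through HEK293E, so the count partly rests on the filter.

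**Figure D4:**
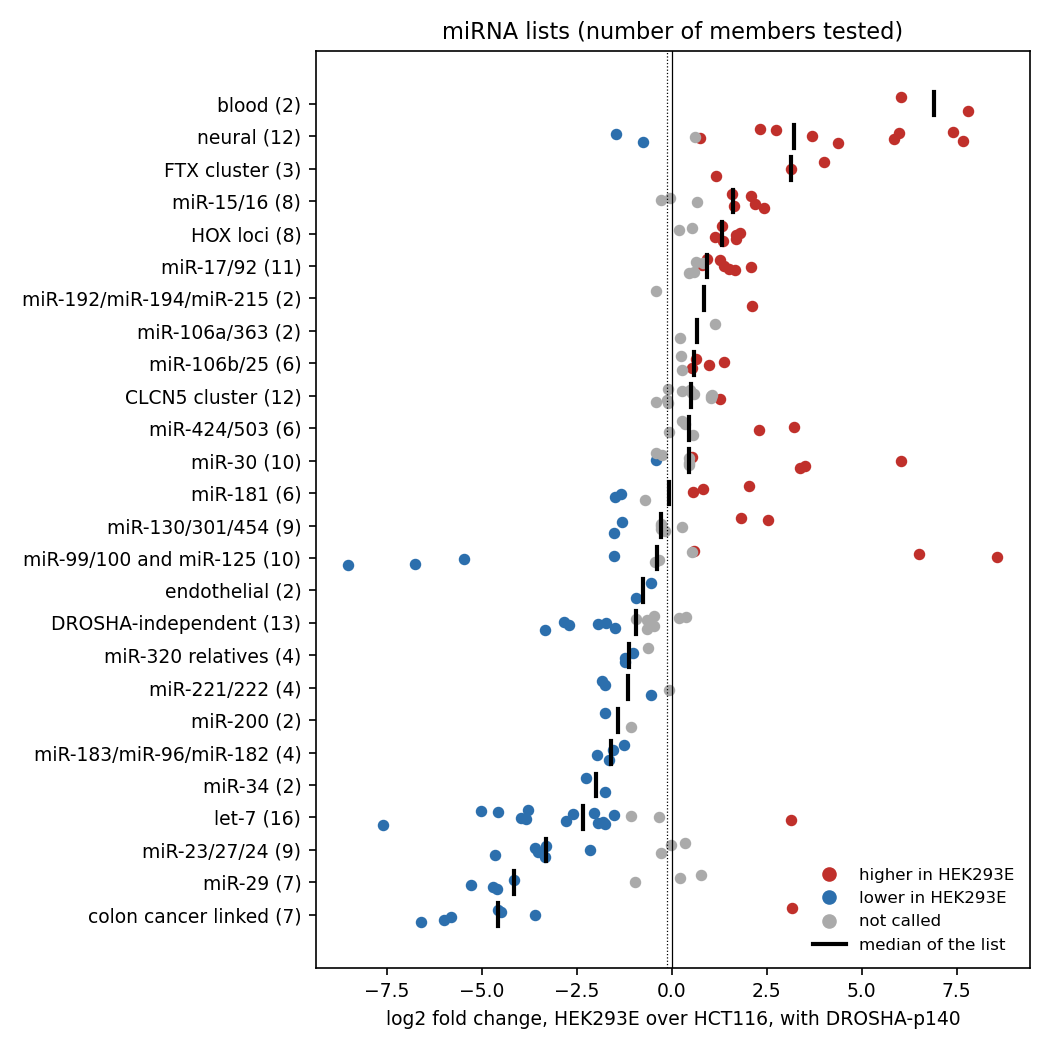
Log2 fold change (HEK293E over HCT116, with DROSHA-p140) of each tested member of 26 miRNA lists, ordered by the list's median (black bar), with the number tested in parentheses. The solid line is 0 and the dotted line the median of all 422 miRNAs (-0.12), and the let-7, miR-29 and miR-23/27/24 lists lie mostly left of both and the HOX, neural and miR-15/16 lists mostly right.

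With scaling to the DROSHA-independent miRNAs, whose levels varied most in HCT116, fewer list members were called, namely 8 of the let-7, 1 of the miR-17/92, 0 of the miR-106b/25 and 2 of the miR-15/16 strands, and the medians kept their direction (-1.96, 1.27, 1.05 and 2.02). Among the miRNAs described here, that scaling also ended the calls of miR-222-3p, miR-221-3p, miR-34a-5p, let-7a-5p, let-7f-5p, let-7g-5p, miR-125b-5p, miR-99b-5p, miR-10a-5p, miR-92a-3p, miR-25-3p, miR-19a-3p, miR-15a-5p, miR-30c-5p, miR-30d-5p, miR-9-5p, miR-128-3p and miR-126-3p, each in the same direction. Other lists showed smaller or mixed differences. The sensory cluster of miR-183, miR-96 and miR-182 on chromosome 7 had all 4 tested strands lower in HEK293E (29.4% of all miRNAs were). Its median was -1.60 (-1.12 and 0 called with scaling to the DROSHA-independent miRNAs), and miR-182-5p had 2598 ± 434 CPM in HEK293E and 8147 ± 1198 CPM in HCT116 (adjusted p = 4.2e-05). miR-34a-5p, a target of p53, had 2758, 1448 and 1716 CPM in HEK293E, against 7497, 10570 and 10100 CPM in HCT116 (log2 fold change -2.25 ± 0.26, adjusted p = 3.8e-05, and -1.87 and not called with scaling to the DROSHA-independent miRNAs). miR-222-3p, which represses the cell-cycle inhibitor p27, had 34100, 45630 and 42570 CPM in HEK293E, against 149100, 145700 and 117200 CPM in HCT116 (log2 fold change -1.75 ± 0.17, adjusted p = 1.2e-05, and -1.26 and not called with that scaling). Its neighbour miR-221-3p was lower by less (-0.55 ± 0.15, adjusted p = 0.0088), lost the call without HCT116 replicate 1 (-0.44) and turned to 0.40 when scaled to library totals. The FTX cluster on chromosome X had all 3 tested members higher (25.8% of all miRNAs were), with a median of 3.14. Among these, miR-421 passed the filter on low counts through HEK293E. miR-374b-5p had 1060, 1202 and 1214 CPM in HEK293E, against 122, 80.2 and 188 CPM in HCT116, and miR-421 had 237, 353 and 335 CPM in HEK293E, against 4.70, 14.1 and 35.3 CPM in HCT116.

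Markers of other cell types were also measured. On the blood list 2 of 13 miRNAs were tested. These passed the filter on low counts through HEK293E alone, so they could only come out higher there. miR-155-5p had 94 reads over the HEK293E libraries and 0 in HCT116 (at least 27.1-fold higher). miR-486-5p had 72.0, 172 and 136 CPM in HEK293E, against 0, 0 and 3.90 CPM in HCT116. The summed blood list reached 175 to 336 CPM in HEK293E and 18.9 to 70.7 CPM in HCT116. The 2 endothelial miRNAs listed, the arms of mir-126, summed to 1739 to 2051 CPM in HEK293E and 2942 to 3855 CPM in HCT116. miR-126-3p had 1029, 1288 and 1148 CPM in HEK293E, against 2059, 1990 and 2681 CPM in HCT116 (log2 fold change -0.96 ± 0.20, adjusted p = 0.002), and its value was -0.03 when scaled to library totals. No member of the muscle, pluripotency, DLK1-DIO3 or C19MC lists (12, 16, 59 and 26 miRNAs) passed the filter on low counts, so single members could not be compared at this depth. The summed DLK1-DIO3 list had 3, 6 and 5 reads in HEK293E, against 67, 28 and 47 in HCT116. The pluripotency list had 0, 0 and 0 against 4, 4 and 11, and C19MC 2, 1 and 0 against 6, 6 and 10. The muscle list overlapped, with 13, 11 and 13 reads in HEK293E against 8, 21 and 19 in HCT116. These sums were not tested.

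Neighbouring hairpins were compared for direction. Among hairpins of a single copy within 10 kb of the next on 1 strand, 12 groups had called miRNAs from at least 2 hairpins, and in 12 of 12 all calls went in 1 direction, 6 higher and 6 lower in HEK293E. These groups were chosen for their calls, and neighbours without such calls fall outside them: 1 of 12 tested members of the CLCN5 list and 2 of 6 of the list of miR-424, miR-503 and their neighbours were called, against 55.2% of all miRNAs. The groups that were lower were the MIR100HG, miR-29a, miR-23a, SREBF1 (miR-33b and miR-6777), miR-183 and miR-221 clusters. The groups that were higher were the miR-106b/25, miR-17/92, miR-181c, miR-497, FTX and miR-99a clusters. The size varied within a group: the strands of MIR17HG ranged from 0.45 to 2.08, and those of the miR-221 cluster from -1.84 to -0.08. By position, 59 of 245 intronic miRNAs were higher and 73 lower, with a median of -0.14, shares close to the 25.8% and 29.4% of all miRNAs. Of 41 exonic ones 9 were higher and 17 lower, with a median of -0.75, and of 61 intergenic ones 20 were higher and 13 lower, with a median of 0.28. No test between these classes was made, and hairpins of 1 transcript are not independent.

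Summed over seeds, 203 of 364 families (55.8%) differed, 100 higher and 103 lower in HEK293E. The miR-21 seed AGCUUAU, which miR-590-5p shares, made 0.747 ± 0.0475% of reads in HEK293E and 21.7 ± 3.82% in HCT116. The let-7 seed GAGGUAG made 3.05%, 3.65% and 3.58% of reads in HEK293E, against 7.26%, 6.69% and 7.32% in HCT116 (log2 fold change -1.87 ± 0.21, adjusted p = 5.8e-07). The miR-29 seed AGCACCA made 0.554 ± 0.195% in HEK293E and 5.0 ± 1.63% in HCT116. Seeds of the cell-cycle clusters stood the other way: AAAGUGC, led by miR-93-5p, miR-20a-5p, miR-17-5p and miR-106b-5p, made 7.74 ± 1.08% in HEK293E and 2.97 ± 0.538% in HCT116 (log2 fold change 0.56 ± 0.22, adjusted p = 0.038). AUUGCAC, led by miR-92a-3p and miR-25-3p, made 7.17 ± 1.11% in HEK293E and 1.96 ± 0.219% in HCT116 (log2 fold change 1.04 ± 0.22, adjusted p = 0.00042). The miR-15/16 seed AGCAGCA made 4.29 ± 0.39% in HEK293E and 1.69 ± 0.425% in HCT116, and was not called after TMM scaling (0.51 ± 0.23, adjusted p = 0.07). The miR-221 and miR-222 seed GCUACAU was high in both lines, with 9.05%, 10.8% and 10.9% in HEK293E, against 13.8%, 13.6% and 12.7% in HCT116 (log2 fold change -1.20 ± 0.19, adjusted p = 3.6e-05).

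miRNAs made without DROSHA took overlapping shares of the 2 pools when miR-320a was counted. The list of DROSHA-independent miRNAs held 17.6%, 20.0% and 15.5% of reads in HEK293E, against 21.0%, 18.9% and 7.05% in HCT116. The mean shares of 17.7 ± 2.27% in HEK293E and 15.7 ± 7.55% in HCT116 could not be told apart (exact permutation test, two-sided, p = 0.9), and HCT116 replicate 3 was lowest of all 6. Without miR-320a the lines did not overlap: the share was 4.29%, 4.56% and 3.60% in HEK293E, against 2.90%, 2.64% and 1.38% in HCT116 (exact permutation test, two-sided, p = 0.1, the smallest possible). Without HCT116 replicate 3 the difference with miR-320a, HEK293E minus HCT116, was -2.30 percentage points, against 2.01 with it. In the HCT116 knockout with GFP miR-320a, the main member, had 611600 CPM without TMM scaling, and in untreated wild-type HCT116 cells 11890. In the rescued cells it had 92270, 117300 and 84270 CPM in HEK293E, against 262000, 234800 and 72680 CPM in HCT116 (log2 fold change -0.95 ± 0.38, adjusted p = 0.052), and without HCT116 replicate 3 it was called at -1.27. Of 13 tested list members 6 were lower (29.4% of all miRNAs were) and 0 higher in HEK293E, with a median of -0.95 (0.02 when scaled to library totals), and the 6 were the mirtrons miR-1224-5p, miR-1226-5p, miR-1228-5p, miR-1228-3p, miR-1229-3p and miR-1236-3p. Among these, miR-1224-5p, miR-1228-5p and miR-1236-3p passed the filter on low counts through HCT116. miR-1229-3p had 408 ± 48.4 CPM in HEK293E and 1354 ± 534 CPM in HCT116 (adjusted p = 0.00092). miR-484 was not called (0.20 ± 0.24, adjusted p = 0.50).

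The choice of strand within a hairpin was not shown to differ. For 87 hairpins with reads on both arms, the log2 ratio of 5p to 3p reads was compared by limma, and 0 (0%) had an adjusted p under 0.05, 8 had an unadjusted p under 0.05, and the smallest adjusted p was 0.33. In 82 of the 87 the same arm led in all 6 libraries. mir-222 had a log2 ratio of -4.54, -5.05 and -4.84 in HEK293E, against -4.88, -4.81 and -4.48 in HCT116, and mir-10a had 5.32, 5.31 and 5.36 in HEK293E, against 4.94, 5.22 and 4.86 in HCT116. With a pseudocount of 5 in place of 0.5, 5 hairpins were called. Among these was mir-100, whose 3p arm had 0 reads in HEK293E, so its ratio there is set by the pseudocount.

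Most of the line difference was also present with full-length DROSHA. Of 399 miRNAs tested with both forms, 223 were called with p140 and 259 with full-length DROSHA, in separate libraries. Of these, 185 were called with both in the same direction, 83.0% of the p140 calls and 71.4% of the full-length calls, and 0 in opposite directions. miR-21-5p had a log2 fold change of -5.81 with p140 and -6.37 with full-length DROSHA, miR-218-5p 7.39 and 7.34, miR-100-5p -6.76 and -6.84, miR-99a-5p 6.50 and 7.02, and miR-29a-3p -4.60 and -4.69.

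A direct test of that dependence called 17 of 515 miRNAs (3.30%), 11 with a more positive and 6 with a more negative line difference under p140. The largest was miR-421, of the FTX cluster. With p140 it had 250.6, 352 and 346 CPM in HEK293E, against 4.74, 13.8 and 36.4 CPM in HCT116. With full-length DROSHA it had 925, 994 and 1129 CPM in HEK293E, against 307, 314 and 349 CPM in HCT116. The log2 line difference came to 4.04 with p140, against 1.65 with the full-length enzyme, a gap of 2.39 ± 0.48 (adjusted p = 0.012). Its neighbour miR-374b-5p had 1122, 1198 and 1257 CPM in HEK293E, against 123, 78.0 and 193.9 CPM in HCT116 with p140, and 3493, 3612 and 3870 CPM in HEK293E, against 1396, 1420 and 1755 CPM in HCT116 with full-length DROSHA (gap 1.90 ± 0.33, adjusted p = 0.0062). Both lines held less of these miRNAs with p140, and HCT116 held the least.

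miR-454-3p, in an intron of SKA2, had 926, 1227 and 1275 CPM in HEK293E, against 185, 138 and 259 CPM in HCT116 with p140. With full-length DROSHA it had 1900, 1825 and 2343 CPM in HEK293E, against 1264, 1408 and 1350 CPM in HCT116 (gap 1.96 ± 0.31, adjusted p = 0.0038). miR-19a-3p, miR-98-5p and miR-15b-5p had gaps of 1.68, 1.38 and 1.31 (adjusted p = 0.012, 0.039 and 0.031). In the other direction, miR-1260b had 8034, 6811 and 7173 CPM in HEK293E, against 2084, 2905 and 2077 CPM in HCT116 with p140. With full-length DROSHA it had 5456, 6022 and 4728 CPM in HEK293E, against 514, 461 and 664 CPM in HCT116 (gap -1.67 ± 0.26, adjusted p = 0.0038). miR-4286 and the DROSHA-independent miR-484 had gaps of -1.79 and -1.17 (adjusted p = 0.049 and 0.039). The number of calls depended on single libraries: leaving out HCT116 p140 replicate 3 gave 85, 28 more positive and 57 more negative, which included all 17, and leaving out HEK293E p140 replicate 1, 2 or 3 gave 11, 5 and 7, HCT116 p140 replicate 1 or 2 gave 8 and 6, and any 1 HCT116 full-length library gave 7. With scaling to the DROSHA-independent miRNAs, 0 were called (edgeR) and 71 had an unadjusted p under 0.05. The direction of all 9 named miRNAs stayed the same under the 21 alternatives run for each.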

How the data were processed

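Total RNA had been mixed with spike-in RNAs, size-selected on a gel, ligated to randomized adaptors and sequenced on a MiSeq, per the labels' protocols. cutadapt, STAR and bedtools were used with hg38, per the submitters' processing notes. The sources used here state neither their versions nor the miRNA annotation, and not how multi-mapping reads, strand or the random adaptor bases were handled. The deposited tables give unnormalized counts as whole numbers, 2813 per library, which cover 2588 mature miRNAs and 1881 hairpins. They held 0 values for anything else, so spike-ins were not used and amounts per cell cannot be compared. For the 167 mature miRNAs listed under several hairpins, the copy with the highest total was kept. Without molecular identifiers several reads can come from 1 molecule, and intervals and floors cover counting error only.

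Groups came from the sample titles. The members and lists were chosen with earlier results of these data known. Counts of the 6 p140 libraries were tested by the quasi-likelihood F test of edgeR 4.0.16 (R 4.3.3, TMM, filterByExpr with a minimum count of 10, Benjamini-Hochberg over all miRNAs tested, threshold 0.05, two-sided). The filter kept miRNAs with enough reads in 1 line alone, so counts and medians of lists partly rest on it. Seed families were summed over miRNAs with the same bases 2 to 8 in RefSeq, where 2281 mature names matched, and miRNAs without a match, such as miR-320a, stayed alone. The dependence on the DROSHA form was the interaction of line and form over 12 libraries. Arm ratios were log2((5p + 0.5)/(3p + 0.5)), tested with limma 3.58.1 for hairpins with at least 20 reads in every library and 30 on each arm in all. Fold changes are log2, HEK293E over HCT116, ± standard error, and levels are per library or mean ± SD. A line with 0 reads of a miRNA was given 3 counts over the group as a floor, and one with 1 to 3 reads a ratio with an exact 95% interval. On simulated counts with known changes, the line test recovered 57.4% of 2-fold and 98.8% of 4-fold changes among 368 miRNAs, the test of the form 38.9% and 77.5% among 483, and the arm test 61.5% and 100% among 87 hairpins. The simulated arms were more balanced and varied less between libraries than many real ones, such as mir-193b (SD 1.06 in HEK293E and 1.39 in HCT116). The arm figures, of which the 100% rests on 7 hairpins, may therefore overstate the power for real hairpins.

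The miRNAs named were the 8 most abundant of each line, the 10 largest rises and falls with an adjusted p under 0.05, no overlap and at least 200 CPM in the higher line (1 arm per hairpin), up to 4 of each list by abundance, up to 6 called each way in the test of the form with at least 200 CPM in the highest group (6 with a positive and 3 with a negative gap qualified), and the 6 leading seeds of each line. Members of a list that moved against it, strands that belong to 1 copy of a miRNA, and relatives that share a seed were named after their values were seen. Host genes came from GENCODE 29, with coordinates counted from 1. Replicate numbers were not taken to pair the lines. Figures were drawn with matplotlib 3.10.9.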

Additional observations from a re-analysis of the deposited data

Results flagged for a closer look

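The test of the interaction over 12 libraries called 17 miRNAs, of which 9 were named by the rule given above. In these 9 the difference between HEK293E and HCT116 cells with p140 was called as unlike that with full-length DROSHA. With scaling to the DROSHA-independent miRNAs 0 were called. The gap between the 2 line differences, p140 minus full-length DROSHA on the log2 scale, was 2.39 for miR-421, 1.96 for miR-454-3p, 1.90 for miR-374b-5p, 1.68 for miR-19a-3p, 1.38 for miR-98-5p and 1.31 for miR-15b-5p. It was -1.79 for miR-4286, -1.67 for miR-1260b and -1.17 for miR-484. Of 21 alternatives run for each, miR-454-3p, miR-374b-5p and miR-1260b were called in 20, miR-421 and miR-19a-3p in 18, miR-98-5p and miR-15b-5p in 10, miR-484 in 8 and miR-4286 in 6. The highest adjusted p over these alternatives lay between 0.25 (miR-421 and miR-454-3p) and 0.99 (miR-484). HCT116 p140 replicate 3 and the share of reads on DROSHA-independent miRNAs (7.05% in that library, 21.0% and 18.9% in replicates 1 and 2) moved with these counts, and their part in the result was not tested.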

How the results depend on the processing

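The counts of the line difference moved by over 1.5 times only under other scalings. With library totals alone 290 miRNAs were called, 75 of them lower in HEK293E, against 233 and 124, and 177 seeds were higher and 65 lower, against 100 and 103. With scaling to the DROSHA-independent miRNAs 140 miRNAs were called, and 57 miRNAs and 52 seeds were lower. Under library totals 13 named values reversed: miR-221-3p (0.40), miR-221-5p (0.85), miR-103a-3p (0.28), miR-125a-5p (0.60), miR-16-5p (0.88), miR-16-2-3p (0.66), miR-27b-3p (0.93), miR-30c-5p (0.51), miR-30e-5p (0.53), miR-301a-3p (0.64), miR-660-5p (0.84), miR-128-3p (0.17) and miR-126-5p (0.38). Without 1 library 198 to 277 miRNAs were called, 106 to 145 of them lower. Over all alternatives the named line differences kept direction and call in 1515 values, lost the call in 134 and gained it in 58. The test of the form gave 17 calls, 11 with RLE scaling, 0 with scaling to the DROSHA-independent miRNAs, 8 with a minimum count of 30, 27 with DESeq2 and 5 to 85 without 1 library; the cause was not tested. Arm ratios gave 5 calls with a pseudocount of 5, which changes ratios of arms with few reads. The numbers did not pair the lines, since libraries of the same number deviated with correlations of -0.22, 0.15 and 0.14, and with the replicate block 102 miRNAs were higher and 124 lower. The share of DROSHA-independent reads, HEK293E minus HCT116, ranged from -2.30 to 4.69 percentage points without 1 library. Depth limits the reading of rare miRNAs, since the smallest library held 135083 reads.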
